A study of Mus musculus with 12 samples.

Results

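The 8 genes described here encode enzymes and adaptors that act on DNA during antibody class switching: Ung, Apex1, Apex2, Msh6, Exo1, Polh, Trp53bp1 and Lig4. They were chosen by name, with earlier results of these data known. Every gene probe carrying one of these names was taken, which gave 9 probes, 1 per gene and 2 for Trp53bp1, of 55681 gene probes with 34821 different names on the array. The arrays measured B cells from the spleens of Balb/c females, either controls or mice with an allergy to house dust mite (HDM). All groups shared the same culture, 2 days with an agonist of the costimulatory receptor CD40 and lipopolysaccharide (LPS) for the last 5 hours. Cells that secreted IL-10 were marked with a secretion assay and separated from those that did not by flow cytometry, and each sort fraction from each kind of mouse was run on 3 arrays, 4 groups in all. A group is named by its sort and its mice, as in IL-10+ HDM. The labels used here give no age, no HDM dose or schedule and no pooling of animals. They also do not say that replicates are separate cultures or animals, so p-values measure only the spread between these samples, which may be technical.

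In class switching, cytosines of the immunoglobulin switch regions are turned into uracils, and the cell converts these into double-strand breaks whose ends are joined to a new constant region. UNG, the uracil-DNA glycosylase, removes the uracil and the endonucleases APE1 and APE2 cut at the empty site. MSH6 recognises the mismatch instead and recruits the exonuclease EXO1 and DNA polymerase eta. The p53-binding adaptor encoded by Trp53bp1 protects the broken ends and DNA ligase IV seals them. CD40 and LPS signals are classical inducers of this programme in mouse B cells.

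The sequences of 5 probes are shown here as the array design gives them, with their mm9 coordinates. Positions along a transcript are those in the array annotation. Exon and UTR annotation of the mm9 build was not used here. The Ung probe (chr5:114588731-114588790, plus strand) ends in a run of 34 alternating G and T bases that starts at base 27 of its 60. The Spag7 probe (chr11:70477360-70477419, minus strand), whose pattern over the 12 arrays was the closest to that of Ung, opens with such a run of 30 bases. For both, 30 bases around the edge of the run are printed, with the run in capitals.
Ung, bases 13 to 42: ttagagatttcaaaGTGTGTGTGTGTGTGT
Spag7, bases 15 to 44: GTGTGTGTGTGTGTGTaaaaatgtgtattt
The 2 Trp53bp1 probes are shown because their patterns over the arrays differed. The probe at position 5690 (chr2:121024792-121024851, minus strand) lies upstream in the transcript of the probe at position 7408 (chr2:121022706-121022765, minus strand). The capitals in the latter mark AATAAA, the canonical polyadenylation motif, which 10.1% of all gene probes hold on the printed strand and 13.5% on either strand. Whether this motif bears on the pattern of the probe was not tested.
Trp53bp1 position 5690, bases 1 to 60: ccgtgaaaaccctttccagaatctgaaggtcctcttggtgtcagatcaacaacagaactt
Trp53bp1 position 7408, bases 26 to 55: atagtaagtgttcAATAAAccccggttaca
The probe of Apex1 (chr14:51546483-51546542, plus strand) carries the member differences with the smallest p.
Apex1, bases 1 to 60: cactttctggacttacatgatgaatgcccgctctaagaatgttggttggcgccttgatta
The Msh6, Exo1, Polh and Lig4 probes map to chr17:88390143-88390202 (Msh6), chr1:177838682-177838741 (Exo1), chr17:46309069-46309128 (Polh) and chr8:9970290-9970349 (Lig4). Read on the printed strand, none of the 8 member probes other than that of Ung holds an alternating G and T run of 12 or more bases.

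Levels are log2 of the processed signal relative to the 75th percentile of the array, so 0 is the brightness that 75% of gene spots do not exceed. A probe was well above background where the scanner's own flag said so, and probes with that flag on at least 3 of 12 arrays were tested, 37649 in all. Array 3 of the IL-10- HDM group had the weakest signal, with 67.7% of tested probes well above background against 74.5% to 88.9% on the others, and a mean correlation of 0.74 across probes with the other arrays against 0.84 to 0.88. All IL-10+ arrays and IL-10- control arrays 1 and 2 were on slide 1, while IL-10- control array 3 and all IL-10- HDM arrays were on slide 2, so in HDM mice the sort and the slide cannot be told apart. Of the 10 B cell markers (Cd79a, Pax5, Ms4a1 and others), 10 were well above background on every array outside the IL-10- HDM group and 9 or 10 on the arrays of that group. The summed B cell level, on the linear scale, was 115 to 170 in IL-10+ control, 107.3 to 181 in IL-10- control, 150.0 to 187 in IL-10+ HDM and 177 to 298 in IL-10- HDM cells. The 11 T cell markers summed to 3.53 to 7.10 over all arrays, with 8 to 10 of them well above background on each array. The 7 NK markers summed to 2.18 to 6.74, with 4 to 6 well above background. The 12 myeloid and dendritic markers summed to 437 to 592, and to 7.15 to 17.7 without their 2 brightest probes, which were left out after their values were seen: Itgam, at a mean level of 8.70 with a 20-base CA run in its probe, and Siglech, at 6.11. In that list S100a8 and Itgax were well above background on no array. The 7 erythroid and platelet markers summed to 0.593 to 2.59.

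No member probe passed the test in any of the 6 comparisons (limma, with a threshold of 0.05 on the p-value adjusted by Benjamini-Hochberg over every tested probe). In the IL-10+ against IL-10- comparison averaged over control and HDM mice 0 of 9 member probes were called, beside 0.345% of all tested probes. The corresponding count was 0 of 9 in control mice alone (0.0159% of all probes), in HDM mice alone (0.197%), for HDM against control in IL-10+ cells (0.00531%) and in IL-10- cells (0.0717%), and for the interaction, the sort difference of HDM mice minus that of control mice (0%, 0 of 37649). At an unadjusted p under 0.05, 1 member probe passed in the averaged comparison, in HDM mice, in IL-10- cells and for the difference of contrasts, each time Apex1, and 0 passed in control mice or in IL-10+ cells. Of all tested probes, 9.31%, 13.2%, 9.40% and 6.49% passed that level in those 4 comparisons, so 1 of 9 is near the background share. The median log2 difference of the member probes between IL-10+ and IL-10- cells was 0.10 averaged, -0.08 in control mice and 0.28 in HDM mice, beside medians over all tested probes of 0.06, -0.04 and 0.23. Its sign turned without IL-10- HDM array 3, which gave -0.08 averaged and -0.05 in HDM mice, and in HDM mice also without the Ung probe (-0.02). For HDM against control it was -0.00 for the IL-10+ and -0.08 for the IL-10- fraction, beside 0.08 and -0.10. Since these are bulk sorted cells, fewer cells that express a gene and less RNA per cell cannot be told apart.

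The arrays of the compared groups did not overlap for few member probes. In control mice this held for 1 of 9, Apex2, with IL-10+ below IL-10-, beside 9.5% of all tested probes in either direction. In HDM mice it held for 2 of 9, Apex1 and Msh6, both with IL-10+ below IL-10-, beside 22.1% of all probes. For HDM against control it held for 0 of 9 in IL-10+ cells (9.73% of all probes) and for 1 of 9 in IL-10- cells, Apex1, with HDM above control (12.2%). With all 6 IL-10+ arrays set against all 6 IL-10- arrays it held for 0 of 9, beside 0.938%. The member counts are close to what these background shares give over 9 probes.

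**Figure D1:**
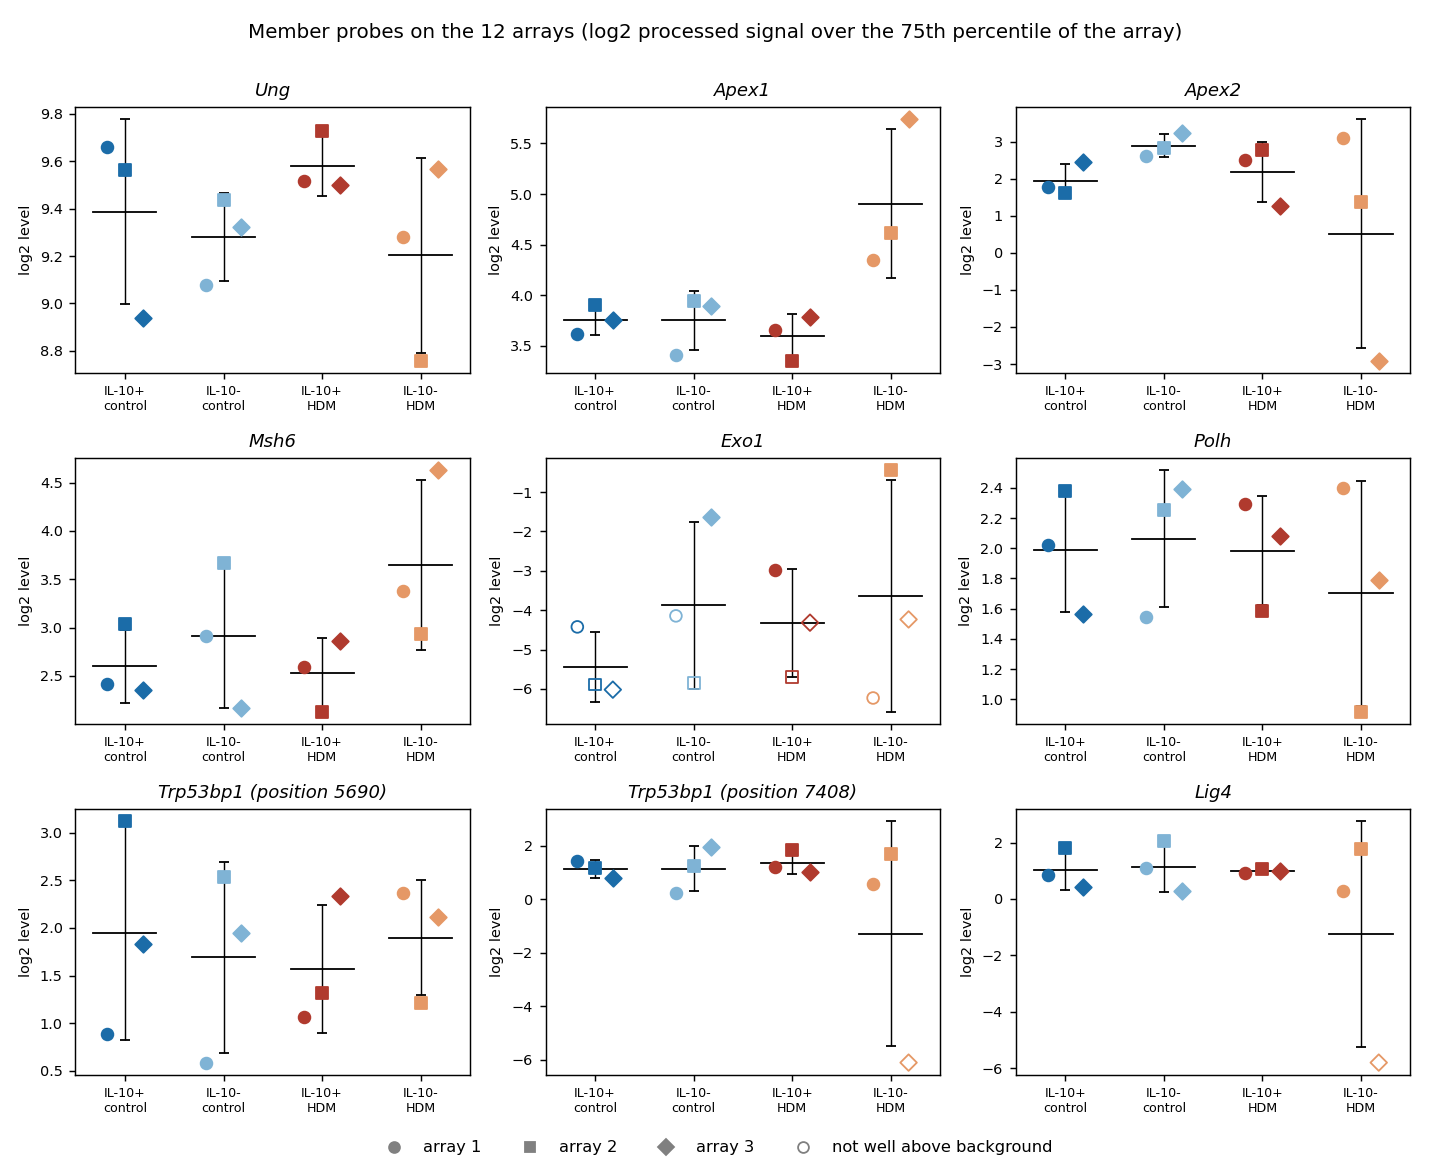
Level of each member probe on the 12 arrays (vertical axis, log2 processed signal relative to the 75th percentile of the array; each panel has its own range), by group; point shapes are array numbers within a group, hollow points are not well above background, and bars are the mean and SD of 3 arrays. Apex1 is highest on the 3 IL-10- HDM arrays (4.35, 4.62 and 5.74), and Lig4 and the Trp53bp1 probe at position 7408 drop out on IL-10- HDM array 3.

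Ung gave a bright and flat signal. Its level was 9.66, 9.56 and 8.94 in IL-10+ control, 9.08, 9.44 and 9.32 in IL-10- control, 9.52, 9.73 and 9.50 in IL-10+ HDM and 9.28, 8.76 and 9.57 in IL-10- HDM cells. The groups overlapped in each of the 4 pairwise comparisons of the design, and their means ran from 9.20 ± 0.41 to 9.58 ± 0.13 (SD, n = 3). The averaged IL-10+ against IL-10- difference was 0.24 (SE 0.25, 95% interval -0.30 to 0.79, limma adjusted p = 0.797). The alternating run printed above is set here beside other probes with such runs. Among gene probes other than Ung, the 24 with a run of 30 or more alternating G and T bases, from 24 differently named genes, had mean levels of 9.25 to 10.31 (median 9.74). The 51 with a run of 20 or more had a median of 9.59, the 70 with a run of 12 to 19 a median of 7.25, and the 55559 without a run of 12 a median of -3.18. The Ung probe lay 0.17 to 0.64 below the median of the 24 long-run probes on each array. The 24 also varied little, with a median SD over the 12 arrays of 0.16 against 0.86 for probes without a run. The run lengths were chosen after the Ung sequence was seen. How much of the Ung probe's signal comes from Ung transcript was not tested, and the probe's values are not used below as a measure of Ung RNA.

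**Figure D2:**
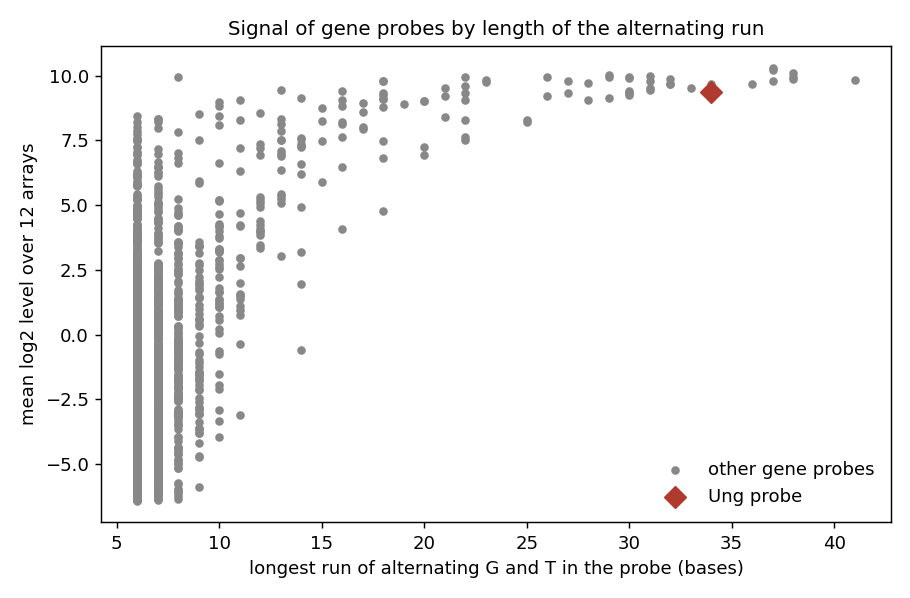
Mean log2 level over the 12 arrays (vertical axis) against the length of the longest run of alternating G and T in the probe (horizontal axis, bases), for all gene probes with a run of 6 or more; each grey point is 1 probe and the red diamond is the Ung probe. Probes with a run of 30 or more sit between 9.25 and 10.31, and the Ung probe, with 34, sits at 9.36.

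Apex1 and Apex2, the endonucleases that cut abasic sites, had different patterns. Apex1 was at 3.61, 3.91 and 3.76 in IL-10+ control, 3.41, 3.95 and 3.90 in IL-10- control and 3.65, 3.36 and 3.78 in IL-10+ HDM cells, against 4.35, 4.62 and 5.74 in IL-10- HDM cells. The 3 lower groups overlapped, with means of 3.76 ± 0.15, 3.75 ± 0.29 and 3.60 ± 0.22, and every IL-10- HDM array (4.90 ± 0.74, SD, n = 3) lay above all 9 others. The 8 germinal centre markers, of which Gcsam was well above background on no array, summed to 2.12 to 5.53 in IL-10- HDM cells against 7.36 to 30.3 in the other groups, and the 7 plasma cell markers to 131 to 306 against an overlapping 76.5 to 196. Of the plasma cell markers, 3 to 5 were well above background on IL-10- HDM arrays and 3 to 6 on the others. Such linear sums follow the brightest genes, and the tested plasma cell genes went in both directions between the sorted fractions, as given below. The part of germinal centre and plasma cell content in the Apex1 values was not tested. In HDM mice the IL-10+ against IL-10- difference was -1.30 (SE 0.40, 95% interval -2.21 to -0.40), which is 2.47-fold lower in IL-10+ cells, with a limma adjusted p of 0.255 (unadjusted 0.0090, rank 1323 of 37649). In control mice it was 0.01 (95% interval -0.89 to 0.91). HDM against control differed by 1.15 in IL-10- cells (SE 0.40, 95% interval 0.25 to 2.05, adjusted p = 0.448) and by -0.16 in IL-10+ cells (95% interval -1.06 to 0.74). The difference between the contrasts of HDM and control mice was -1.31 (SE 0.57, 95% interval -2.58 to -0.04, adjusted p = 0.769), so it did not pass either. Without IL-10- HDM array 3, which had the highest Apex1 level, the difference in HDM mice was -0.89 (adjusted p = 0.421) and that in IL-10- cells 0.73 (adjusted p = 0.644). With slide as a block they were -1.09 (adjusted p = 0.734) and 1.01 (adjusted p = 0.779). Only the IL-10- control group is on both slides, so the slide term rests on its array 3 against its other arrays. Dividing each array by its median in place of its 75th percentile moved the median of all probes by -0.80 in HDM mice and by 0.65 in IL-10- cells, and gave -2.10 and 1.80 for Apex1.

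Apex2 was at 1.77, 1.62 and 2.45 in IL-10+ control and at 2.62, 2.83 and 3.24 in IL-10- control cells. The 2 control groups did not overlap, and their difference was -0.95 (SE 1.20, 95% interval -3.63 to 1.73, limma adjusted p = 1.00). Within slide 1, with IL-10- control array 3 left out, it was -0.77. In HDM mice Apex2 was at 2.50, 2.77 and 1.26 in IL-10+ cells and at 3.10, 1.36 and -2.91 in IL-10- cells, so the lowest level of all 12 was that of IL-10- HDM array 3. That array set the sign of the difference in HDM mice, which was 1.66 (95% interval -1.02 to 4.34) with it and -0.05 without it. HDM against control in IL-10- cells was -2.38 (95% interval -5.06 to 0.30, adjusted p = 0.569) with the array and -0.66 without it.

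Of the mismatch branch, Msh6, the subunit that binds the mismatch, was measured on every array and Exo1 on few. Msh6 was at 2.42, 3.04 and 2.35 in IL-10+ control, 2.91, 3.66 and 2.17 in IL-10- control, 2.59, 2.13 and 2.86 in IL-10+ HDM and 3.38, 2.93 and 4.63 in IL-10- HDM cells. The highest array of all was IL-10- HDM array 3, as for Apex1. The group means ran from 2.53 ± 0.37 in IL-10+ HDM through 2.60 ± 0.38 in IL-10+ control and 2.91 ± 0.75 in IL-10- control to 3.65 ± 0.88 in IL-10- HDM cells (SD, n = 3), and each pair of neighbours in this order overlapped. In HDM mice the IL-10+ against IL-10- difference was -1.12 (SE 0.53, 95% interval -2.30 to 0.07, limma adjusted p = 0.400), and -0.63 (adjusted p = 0.685) without IL-10- HDM array 3. With slide as a block it was -2.24 (adjusted p = 0.612), where the slide term again rests on IL-10- control array 3. In control mice it was -0.31 (95% interval -1.50 to 0.87).

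Exo1, the exonuclease that widens the nick, was well above background on 3 of 12 arrays: IL-10+ HDM array 1 (-2.97), IL-10- control array 3 (-1.64) and IL-10- HDM array 2 (-0.44). It was on no IL-10+ control array, where it read -4.43, -5.89 and -6.02, and the remaining 6 arrays read -6.23 to -4.15. In control mice the fitted IL-10+ against IL-10- difference was -1.56 (95% interval -4.82 to 1.69, limma adjusted p = 1.00), and -0.45 within slide 1, without IL-10- control array 3, the only array of these groups that measured it. No fold is given. All 4 groups overlapped.

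Polh, which encodes the translesion polymerase eta of the mismatch branch, was the steadiest member apart from Ung. It was at 2.02, 2.38 and 1.56 in IL-10+ control, 1.55, 2.25 and 2.39 in IL-10- control, 2.29, 1.58 and 2.08 in IL-10+ HDM and 2.40, 0.92 and 1.79 in IL-10- HDM cells. All groups overlapped, and group means ran from 1.70 ± 0.74 to 2.06 ± 0.45 (SD, n = 3). The averaged IL-10+ against IL-10- difference was 0.10 (SE 0.33, 95% interval -0.62 to 0.83, limma adjusted p = 0.942). The interval leaves room for a difference of up to 0.83 in favour of IL-10+ cells or 0.62 in favour of IL-10- cells.

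The 2 probes of Trp53bp1, the end-protecting adaptor, followed different patterns over the arrays. At position 5690 the level was 0.89, 3.12 and 1.83 in IL-10+ control, 0.59, 2.54 and 1.94 in IL-10- control, 1.06, 1.31 and 2.33 in IL-10+ HDM and 2.37, 1.21 and 2.11 in IL-10- HDM cells. At position 7408 it was 1.42, 1.18 and 0.77, then 0.24, 1.23 and 1.93, then 1.21, 1.84 and 1.01, and in IL-10- HDM cells 0.56, 1.67 and -6.11. IL-10+ control array 2 was the highest of all 12 at position 5690 and the middle one of its group at position 7408. On IL-10- HDM array 3 the probe at position 5690 was well above background at 2.11, and the probe at position 7408 was not. In HDM mice the IL-10+ against IL-10- difference was -0.33 (95% interval -1.87 to 1.21, limma adjusted p = 0.849) at position 5690 and 2.65 (95% interval -0.89 to 6.18, adjusted p = 0.483) at position 7408. Without IL-10- HDM array 3 these were -0.22 and 0.24. In control mice they were 0.26 (95% interval -1.28 to 1.79) and -0.01 (95% interval -3.55 to 3.52).

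Lig4, the ligase of non-homologous end joining, was low on the same array as the second Trp53bp1 probe. It was at 0.84, 1.82 and 0.41 in IL-10+ control, 1.09, 2.06 and 0.29 in IL-10- control and 0.93, 1.07 and 0.98 in IL-10+ HDM cells. In IL-10- HDM cells it was at 0.29, 1.76 and -5.81, and IL-10- HDM array 3 was the only one of 12 where it was not well above background. The IL-10+ against IL-10- difference in HDM mice was 2.25 (SE 1.54, 95% interval -1.17 to 5.66, limma adjusted p = 0.529) with that array and -0.03 without it. HDM against control in IL-10- cells was -2.40 (95% interval -5.82 to 1.01, adjusted p = 0.635) with it and -0.12 without it. In control mice the difference between sorted fractions was -0.13 (95% interval -3.54 to 3.29), and -0.13 with an SE of 0.57 in place of 1.54 when the array was left out of the shared estimate of the spread.

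**Figure D3:**
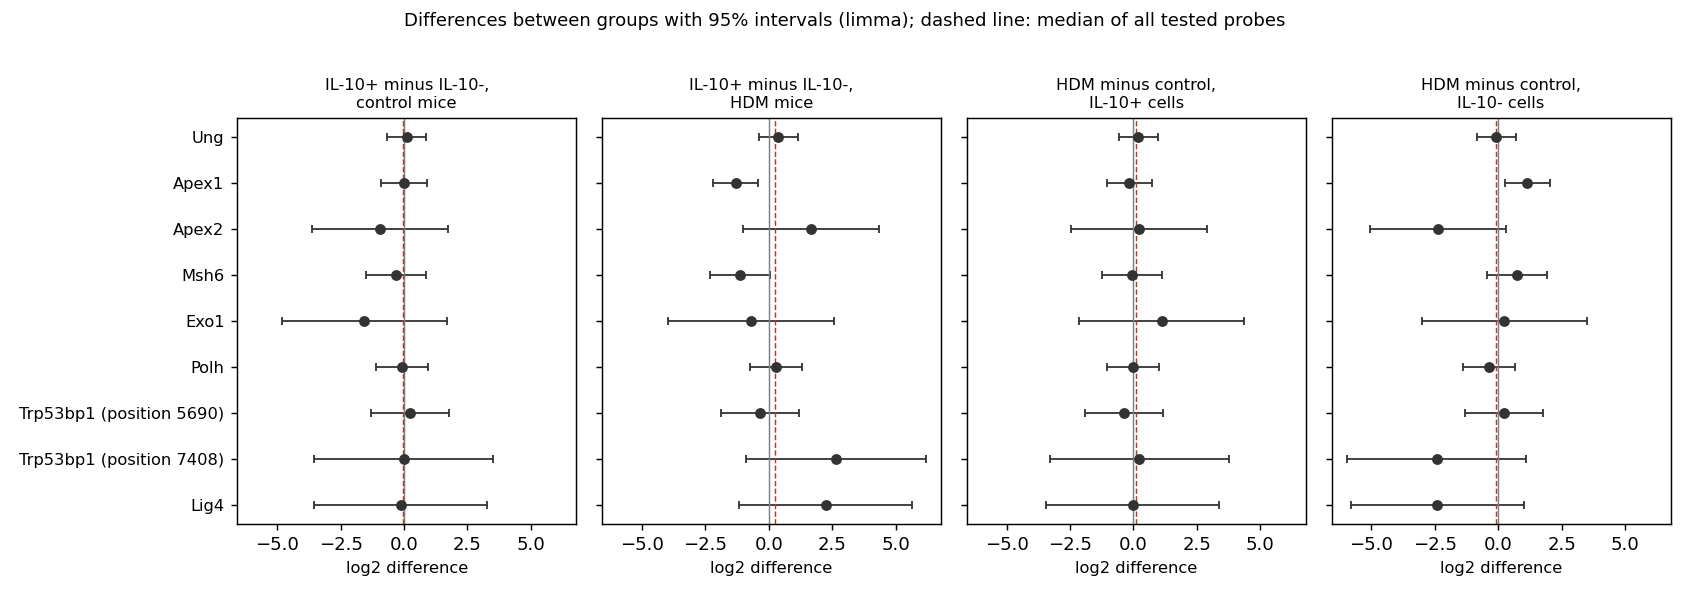
Log2 differences of the member probes (horizontal axis) with 95% intervals from limma in 4 comparisons of 3 against 3 arrays; the grey line is 0 and the dashed line the median of all tested probes. Apex1 in HDM mice (-1.30) and in IL-10- cells (1.15) are the member values whose intervals leave out 0, and neither passed after adjustment over all probes.

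Among all genes tested, the patterns closest to those of the members over the 12 arrays, by the root mean square difference of centred log2 levels, were Tinf2 for Apex1 (0.189), Cc2d1b for Msh6 (0.170), Atf4 for Polh (0.252), Foxn2 for Apex2 (0.456), Usp38 for Lig4 (0.415), Tub for Exo1 (0.809), and Prr14l (0.305) and Psma3 (0.318) for the Trp53bp1 probes at positions 7408 and 5690. For Ung the closest was Spag7 (0.0541), beside an SD of the Ung probe over the 12 arrays of 0.30. Of these 9 neighbours only Spag7 has a probe with a long alternating run. The SD over the 12 arrays was 2.06 for Lig4, 1.65 for Apex2 and 2.17 for Trp53bp1 at position 7408. All of these were lowest on IL-10- HDM array 3, so their matches depend much on that array. Exo1 and Tub have low mean levels (-4.32 and -5.36), so little can be read from their match.

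The other genes of the pathway were taken from 7 lists of partners, and none of their tested members was called in any of the 6 comparisons. Of 19 tested cofactors of the switch reaction, 7 had a positive and 12 a negative averaged IL-10+ against IL-10- difference (median -0.12, all probes 0.06). Ptbp2, an RNA-binding protein reported to act at switch regions, was at -0.95 (SE 0.35, limma adjusted p = 0.451), and Prkar1a, a regulatory subunit of protein kinase A, at -0.66 (SE 0.25, adjusted p = 0.446). Both had their highest group mean in IL-10- HDM cells, 4.67 for Ptbp2 and 2.77 for Prkar1a, against 3.09 to 3.49 and 1.54 to 1.86 in the other groups, as Apex1 had. In HDM mice the cofactor list had 8 positive and 11 negative values (median -0.34, all probes 0.23) and in control mice 10 and 9 (median 0.01, all probes -0.04).

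Of 18 tested base excision genes, 6 had a positive and 12 a negative averaged difference (median -0.15). Xrcc1, the scaffold of single-strand break repair, was at -1.06 (SE 0.42, limma adjusted p = 0.481), and Pcna, the sliding clamp of DNA polymerases, at -0.81 (SE 0.43, adjusted p = 0.602). Of 16 mismatch repair genes, 6 were positive and 10 negative (median -0.28). Pold1, the catalytic subunit of polymerase delta, was at -2.46 (SE 0.80, adjusted p = 0.355) and its partner Pold2 at -1.05 (SE 0.49, adjusted p = 0.549). Pold1 had similar differences in control mice (-2.48) and HDM mice (-2.44), and neither passed. Of 13 translesion genes, 6 were positive and 7 negative (median -0.09), and the smallest p-values after that of Pcna belonged to Polq, a polymerase of alternative end joining, at 0.54 (SE 0.34, adjusted p = 0.666). Primpol, a primase that restarts stalled forks, is named after its values were seen: it was well above background on 8 of 12 arrays, and its difference was -3.66 for HDM against control in IL-10- cells (SE 0.68, adjusted p = 0.114) and 3.00 between sorted fractions in HDM mice (adjusted p = 0.140).

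Of 18 tested genes of the break response around Trp53bp1, 9 were positive and 9 negative (median -0.03). The smallest adjusted p of the partner lists in the averaged comparison, 0.117, belonged to Nudt16l1, which encodes TIRR, a protein that binds the Trp53bp1 product and keeps it from chromatin. Its IL-10+ against IL-10- difference was -1.65 averaged (SE 0.36), -1.24 in control and -2.06 in HDM mice. Shld2, a shieldin subunit that acts downstream of the Trp53bp1 product (named Fam35a on the array), was at -1.30 (SE 0.67, adjusted p = 0.595). Of 15 end-joining genes, 8 were positive and 7 negative (median 0.50). Prkdc, the catalytic subunit of DNA-PK, was at 2.14 (SE 0.93, adjusted p = 0.526) and Xrcc6, the Ku70 gene, at -0.98 (SE 0.53, adjusted p = 0.610). Of 10 resection genes, 6 were positive and 4 negative (median 0.19), with the helicase Blm at -0.66 (SE 0.38, adjusted p = 0.639) and the flap nuclease Fen1 at -0.92 (SE 0.58, adjusted p = 0.668).

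**Figure D4:**
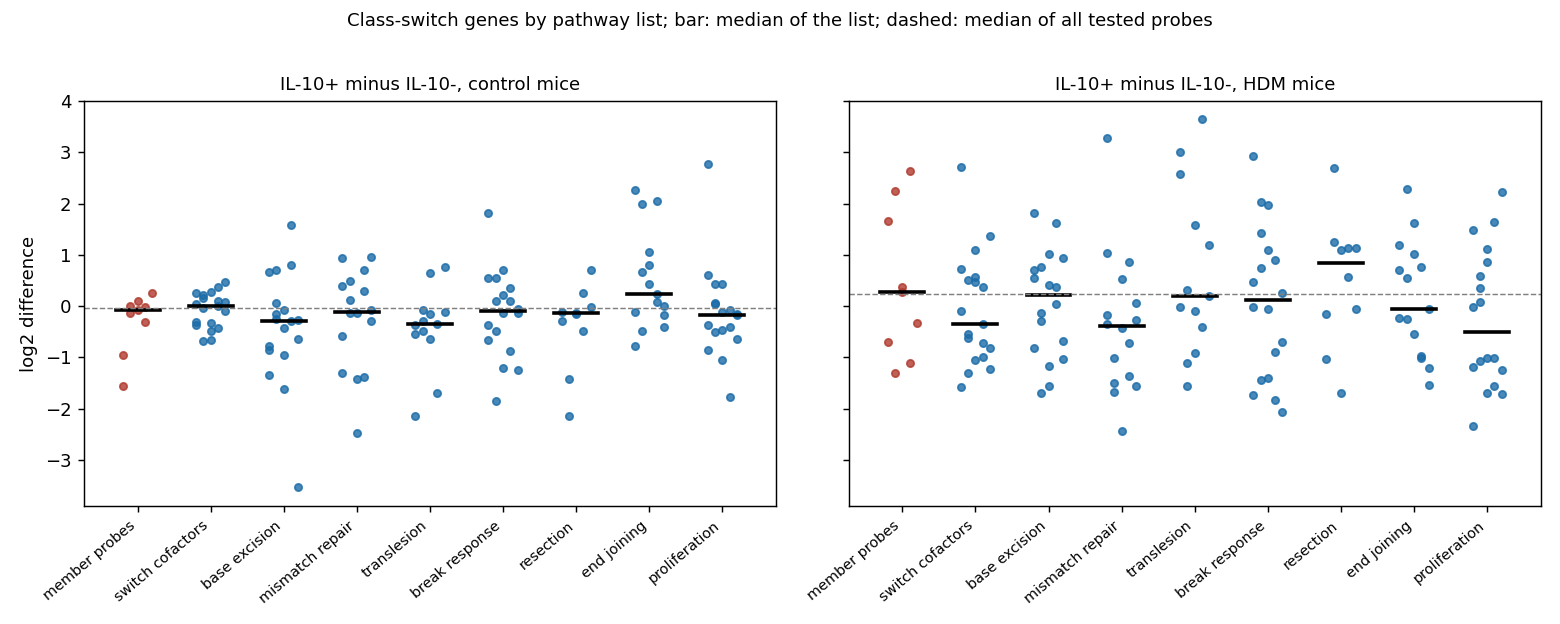
Log2 difference between IL-10+ and IL-10- cells (vertical axis) in control mice (left) and HDM mice (right) for the member probes (red) and the tested genes of each partner list (blue, 1 point per gene); black bars are list medians and the dashed line the median of all tested probes. Values on both sides of 0 occur in every list, and no point passed the test.

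Several of these genes also serve DNA replication, so a proliferation list is given beside them. Of 18 tested proliferation genes, 5 had a positive and 13 a negative averaged difference (median -0.48, all probes 0.06), and 0 were called. Birc5, an inhibitor of apoptosis made in mitosis, was at 2.13 (SE 0.67, limma adjusted p = 0.329) and Mcm5, of the replicative helicase, at -1.18 (SE 0.47, adjusted p = 0.479). The plasma cell list held a gene that passed: Jchain, the antibody joining chain (named Igj on the array), was higher in IL-10+ cells by 6.84 (SE 0.63, adjusted p = 0.0061), while 3 of the 6 tested plasma cell genes were positive and 3 negative. Of the 10 B cell genes, Blnk, a signalling adaptor downstream of the antigen receptor, was called lower in IL-10+ cells, at -1.56 (SE 0.26, adjusted p = 0.039). With slide as a fixed block, 0 probes were called in the averaged comparison, so neither the Jchain nor the Blnk call held there. The part of cell cycle or plasma cell content in the member values was not tested.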

How the data were processed

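Per the labels, mRNA was captured on magnetic beads, its cDNA was amplified by a global PCR and the product was labelled with Cy3, 1 colour per array. The deposited scanner files (Agilent Feature Extraction 10.7.3.1, annotation on mm9, per the file headers) give intensity values, background-subtracted and not normalised between arrays, and other per-spot flags. The values in the deposited table are a ratio of each processed signal to the median of its array (largest deviation on recomputation 0.00077%), and served as an alternative. PCR amplification can change relative levels.

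Here, each log2 processed signal was set against the 75th percentile of its array and averaged over the spots of a probe, without outlier spots. Probes well above background on at least 3 of 12 arrays were fitted with limma 3.58.1 in R 4.3.3, with 4 group means, and p-values were adjusted (Benjamini-Hochberg) over 37649 probes. The fit had 8 residual and 2.15 prior degrees of freedom. The procedure was tested on simulated data. Another 84 probes were left out as outliers on some array. The number of arrays limits the precision.

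Members and lists were chosen with earlier results of these data known. Named were all members, and from each partner list called genes and the 2 with the smallest p in the averaged comparison, at the probe with the highest mean. Alternatives covered background correction, normalisation, filter, slide, replicate number, groups fitted and leaving out each array. Sequences are those of the array design.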

Additional observations from a re-analysis of the deposited data

How the results depend on the processing

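No member probe was called under any of the 23 alternative settings, which gave 1164 values for the 54 member differences, with a lowest adjusted p of 0.134. Sign changed for 87 values, 15 of them under median scaling, and since none of these was called they carry no direction. For Apex1 in HDM mice the difference ranged from -2.10 to -0.88 (adjusted p 0.134 to 0.734), and for Msh6 from -2.24 to -0.63 (0.262 to 0.690). Nothing in the labels says that replicate numbers pair the samples, so no pairing was assumed. The correlation of deviations from the group means was -0.12 to 0.12 over the 18 pairs with the same number. Most of these pairs join control and HDM mice. Between the sorted fractions of one kind of mice, the 6 same-number correlations were all positive (0.02 to 0.12), 9 of the 12 others were negative, and 11 of 12 samples correlated best with their own number, a hint from the data and not from the design. Deviations from a group mean sum to 0 within the group, so these counts are tied to each other and are not separate support. The replicate block used next also ties control and HDM samples of the same number together. A pairing of fractions within control or within HDM mice was not fitted. With replicate number as a block, member calls were 0 in each comparison and Apex1 in HDM mice was at -1.30 (adjusted p = 0.311), while calls over all probes went from 130 to 66 averaged, 6 to 2 in control mice, 74 to 28 in HDM mice, 2 to 1 in IL-10+ cells and 27 to 1 in IL-10- cells. With slide as a fixed block the counts in this order were 0, 6, 0, 1 and 0. The slide term rests on the IL-10- control group, the only group on both slides. Leaving out IL-10- HDM array 3 gave 64, 9, 20, 1 and 10 in the same order. Over all settings calls ranged from 0 to 276 averaged, 0 to 11 in control mice, 0 to 392 in HDM mice, 0 to 4 in IL-10+ cells, 0 to 255 in IL-10- cells and 0 to 22 for the difference of contrasts, with the highest counts averaged, in HDM mice, in IL-10- cells and for the difference of contrasts all without IL-10- HDM array 1. Of the calls, 73 of 74 in HDM mice were higher against 37 of 42 after quantile normalisation, and 1 of 27 in IL-10- cells against 3 of 19. Without the Ung probe, a choice made after seeing the data, the member median in HDM mice was -0.02 in place of 0.28. Requiring all 12 arrays above background left out Exo1, Lig4 and the Trp53bp1 probe at position 7408, and within slide 1 only the comparisons in control mice and in IL-10+ cells could be fitted.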
